A study of Rattus norvegicus with 8 samples.

Results

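The genes described here are 10 rat genes of secreted proteolysis: the matrix metalloproteinases Mmp3, Mmp7, Mmp8, Mmp9, Mmp10, Mmp12 and Mmp13, the metalloproteinase inhibitor Timp1, urokinase (Plau) and the secreted protease Adamts1. They were taken by name, each through the accession of its array probe, and all 10 were found among the 12765 gene symbols with deposited values. Total RNA had been hybridised to 8 one-colour Agilent arrays, 1 for each of 8 groups. The nerve groups were the distal and the proximal segments of the left sciatic nerve 1 day after it was cut in adult female Sprague-Dawley rats of 200 to 225 g, and the right nerve of the uncut side as control, whose label also names a PBS injection site. The cord groups were a dorsal hemisection sample and a C-level control, both of day 5. Their labels count the days from an injection whose content no label names. Each nerve or cord sample was a pool of 3 animals, so the spread between animals is not measured. The Schwann cell groups were an unstimulated culture, kept as a 24 h control, and cultures that received S100A8/A9, a complex of calcium-binding proteins abundant in neutrophils, for 1 h or 24 h at 5 µg/ml. All 3 cultures came from Sprague-Dawley rats of postnatal day 1 to 3, at passage 3 to 7, and had been grown with 4 µM forskolin, pituitary extract and 10% serum, so the control shared these agents. With 1 array a group no difference below has a replicate check or a p-value, and errors after ± are the spread between repeated spots of a probe on the same array. In bulk tissue, fewer cells of a type and less RNA per cell cannot be told apart.

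Sample names follow the column headings of the authors' value table. Each of its columns ranked the probes as 1 of the scans did, but in 7 of the 8 cases the matching scan is filed under a different sample. All 7 are filed under another tissue or culture. The scans of the dorsal hemisection and C-level columns are filed under the contralateral nerve and the Schwann cells at 24 h of S100A8/A9. Of 30367 probes an array showed 65.1% to 75.8% well above background. By the headings, the neuron markers well above background were 5 of 5 in both cord samples, 3 to 4 in the nerves and 1 to 2 in the cultures. The summed level of 4 astrocyte markers was 14.9 and 14.8 (log2) in the cord samples and 8.80 to 9.42 in the other samples. All 9 Schwann cell markers were well above background in every sample, and of 10 macrophage markers 3 or 4 were in the cultures. The markers were read by the headings and do not test labels within a tissue. By the record, the scans of the cord columns, with 5 of 5 neuron markers, would be a nerve and a Schwann cell culture. With the scans as recorded in place of the headings, 32 member differences of at least 2-fold still had a value. Of these 14 turned sign and 18 kept it. Every pair then compares other tissues than by the headings, so neither count tests the directions. All of them hold only if the headings are right.

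Matrix metalloproteinases are zinc-dependent enzymes, made as inactive precursors, that cut collagens, other matrix proteins and many signalling proteins. Tissue inhibitors such as Timp1 bind their active site, and urokinase turns plasminogen into plasmin, which in turn can activate several of the precursors. In peripheral nerve these proteases are known for work at the blood-nerve barrier, in the passage of leukocytes and in the clearing of matrix and myelin after injury.

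In the RefSeq table of assembly GRCr8, 6 of the 10 members lie in 1 row of 10 neighbouring protein-coding genes on chromosome 8, in the order Mmp13, Mmp12, Mmp1b, Mmp3, Mmp1, Mmp10, Mmp8, Mmp27, Mmp20 and Mmp7. A promoter window, from 250 bases before the gene start to 50 after it, was matched for 9 members. It was searched on both strands for TGANTCA, the motif of the AP-1 factors (Fos and Jun dimers), which reads the same on either strand, and for the TATA box TATAAA. The 100 bases just before the start of the 6 neighbours are printed because 5 of them hold both motifs there, all on the plus strand of GRCr8, with both motifs in capitals. The length of 100 bases was picked after the matches had been seen.
Mmp3, chr8:12925181-12925280: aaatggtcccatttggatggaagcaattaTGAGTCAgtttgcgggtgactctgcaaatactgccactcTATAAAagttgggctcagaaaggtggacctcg
Mmp10, chr8:12974607-12974706: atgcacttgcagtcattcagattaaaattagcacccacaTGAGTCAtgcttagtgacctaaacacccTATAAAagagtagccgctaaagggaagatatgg
Mmp12, chr8:12866552-12866651: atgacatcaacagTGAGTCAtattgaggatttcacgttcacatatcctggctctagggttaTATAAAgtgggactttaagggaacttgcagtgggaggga
Mmp13, chr8:12782729-12782828: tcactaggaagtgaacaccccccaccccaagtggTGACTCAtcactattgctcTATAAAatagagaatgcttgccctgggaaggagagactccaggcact
Mmp7, chr8:13132943-13133042: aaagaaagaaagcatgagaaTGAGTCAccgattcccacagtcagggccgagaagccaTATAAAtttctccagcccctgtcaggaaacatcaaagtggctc
Mmp8, chr8:13008790-13008889: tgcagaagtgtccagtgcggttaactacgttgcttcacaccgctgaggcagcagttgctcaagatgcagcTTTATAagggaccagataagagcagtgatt
The first base of TGANTCA lay at -87 in Mmp12, -80 in Mmp7, -71 in Mmp3, -66 in Mmp13 and -61 in Mmp10, counted back from the gene start. The letters of Mmp8 do not hold this motif in the whole window, and its TATAAA is read on the opposite strand. Neither motif occurs in the windows of Timp1 and Plau, and that of Adamts1 holds TATAAA at -70 without TGANTCA. Over all 33469 promoter windows, 2.47% hold TGANTCA and 5.78% TATAAA in the same 100 bases, and 0.176% hold both. A match is a run of letters and not a measured binding site.

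Levels are the authors' log2 values, in which a step of 1 is a 2-fold change. The probes of different genes are not compared with each other. Of the 80 values of the 10 genes in 8 samples, 51 were well above the array background. Timp1 and Adamts1 were well above it in all 8 samples, Plau and Mmp13 in 7, Mmp3 in 5, Mmp7 and Mmp10 in 4, Mmp9 and Mmp12 in 3 and Mmp8 in 2. In the contralateral nerve only Timp1, Plau and Adamts1 were well above background, and in the C-level cord only Timp1, Adamts1 and Mmp13. Where a probe was dim on 1 array of a pair, the difference is given as a bound, "at least" or "at most", against the higher of the probe's own dim value and the lowest level that counts as well above background on that array.

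**Figure D1:**
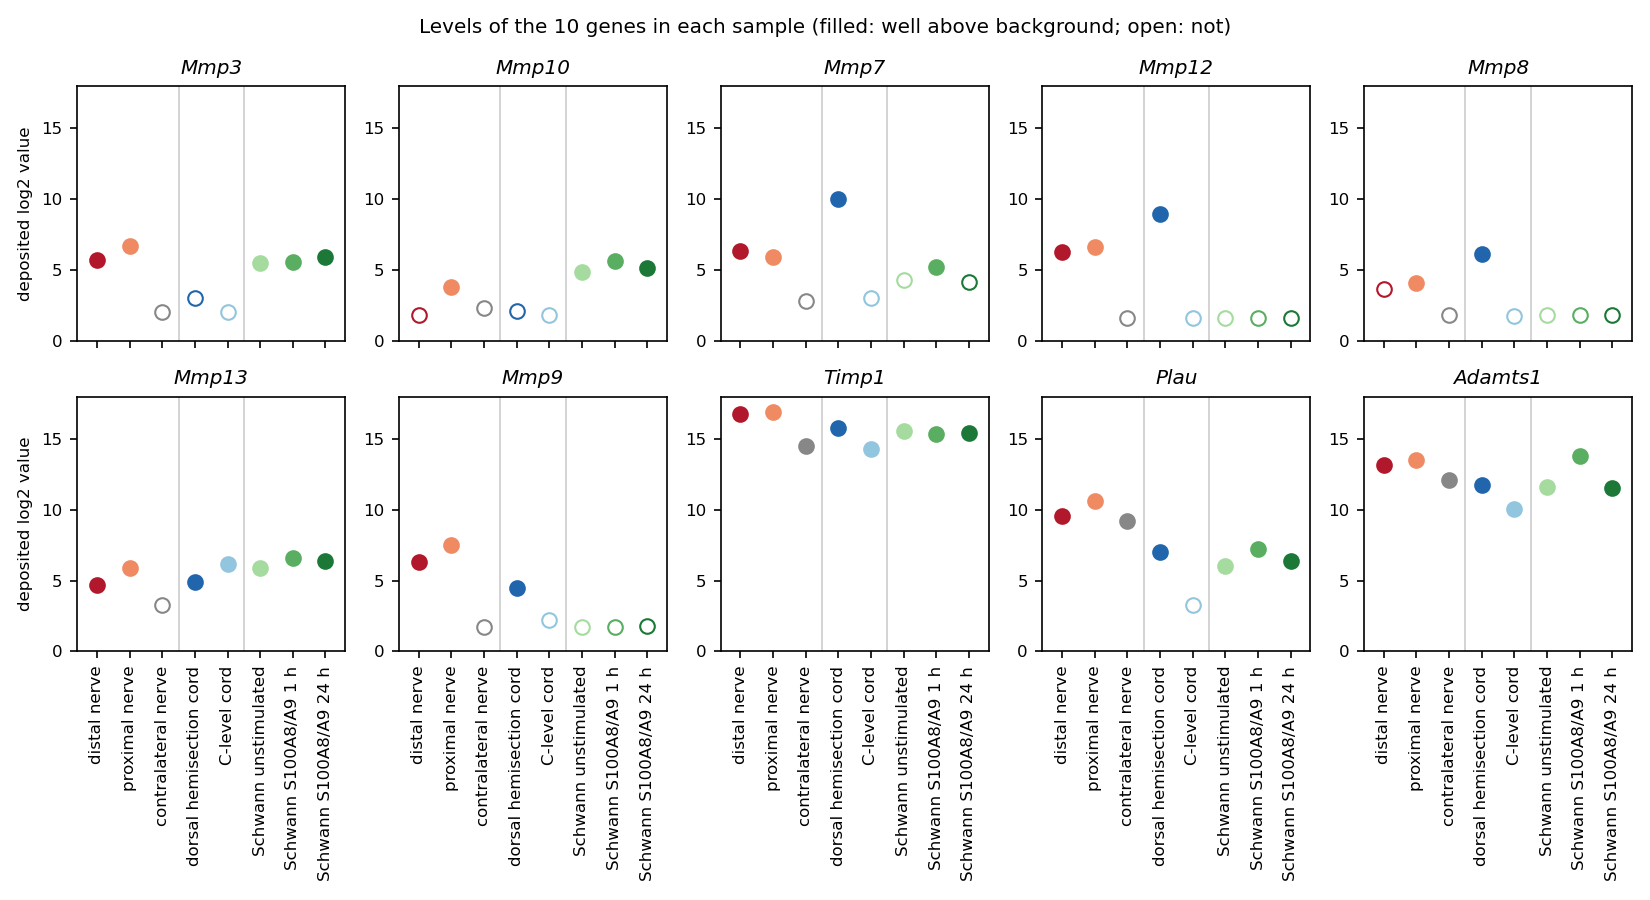
Deposited log2 value (vertical axis) of each of the 10 genes in the 8 samples, with 1 point per sample, filled where the probe was well above background and open where it was not. In the contralateral nerve and the C-level cord all of Mmp3, Mmp7, Mmp8, Mmp9, Mmp10 and Mmp12 are open, while Timp1 and Adamts1 are filled in every sample.

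The first comparisons asked how the stumps of the cut nerve differed from the uncut nerve. Most of the 10 genes stood higher in both stumps. In the distal nerve 8 members were well above background in at least 1 sample of the pair, 6 were at least 2-fold higher and 0 lower, with a median log2 difference of 2.03 over 5 bounds and 3 measured differences, and of 1.07 over the 3 measured. Over all 11939 genes measured in this pair, 12.7% were at least 2-fold higher, 14.1% were lower and the median was 0.01. In the proximal nerve all 10 members were measured in this sense, 8 were higher and 0 lower (median 2.0 with 6 bounds, 1.45 over the 3 measured differences), where 10.5% of 12068 genes were higher, 11.7% were lower and the median was -0.01. The distal and proximal comparisons share the contralateral array, so they are not independent.

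Mmp3, or stromelysin 1, cleaves many matrix proteins and can activate other metalloproteinase precursors. Its probe (NM_133523) read 5.67 in the distal nerve and 6.69 in the proximal nerve, against 2.02 in the contralateral nerve, where it was not well above background. It was thus at least 1.79 higher (3.46-fold) distally and at least 2.81 higher (7.03-fold) proximally. Mmp10, or stromelysin 2, its close relative, read 1.78 distally and 3.80 proximally, against 2.30 in the contralateral nerve. It was well above background in the proximal nerve only, at a level under the lowest that counts as well above background on the contralateral array, so no fold is given for either stump.

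Mmp7, or matrilysin, a short metalloproteinase without the hemopexin domain, read 6.31 distally and 5.88 proximally, against 2.77 in the contralateral nerve. These are differences of at least 2.43 distally and at least 2.0 proximally. Mmp12, the macrophage metalloelastase, read 6.28 and 6.64 in the distal and proximal nerve, against 1.59 in the contralateral nerve, or at least 2.41 and 2.76 higher. For both genes each stump was well above background and the contralateral nerve was not.

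Mmp9, or gelatinase B, is stored in neutrophil granules and cleaves denatured collagen and basement membrane collagen. It read 6.32 distally and 7.51 proximally, against 1.72 in the contralateral nerve, and its bound in the proximal nerve, at least 3.64 (12.4-fold), was the highest of the 10 genes there. Mmp8, the neutrophil collagenase, read 3.63 distally, which was not well above background, and 4.04 proximally, against 1.81 in the contralateral nerve. The proximal difference was at least 0.17, under 2-fold. Mmp13, an interstitial collagenase of rodents, read 4.66 distally and 5.87 proximally, against a dim 3.28 in the contralateral nerve, which gave at least 0.78 and at least 1.99.

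Timp1 was bright on all arrays and so gave measured differences. It read 16.77 in the distal nerve and 16.94 in the proximal nerve, against 14.51 in the contralateral nerve, a log2 difference of 2.27 ± 0.03 (4.81-fold) and 2.44 ± 0.03 (5.41-fold). Plau read 9.59 distally and 10.63 proximally, against 9.18 in the contralateral nerve. Urokinase was therefore 1.45 ± 0.05 higher in the proximal nerve (2.73-fold) and 0.41 ± 0.05 higher in the distal nerve, under 2-fold. Adamts1, which cleaves the proteoglycans aggrecan and versican, read 13.18 and 13.53 in the distal and proximal nerve, against 12.11 in the contralateral nerve, 1.07 ± 0.03 and 1.42 ± 0.03 higher.

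Members with a dim contralateral value gave smaller differences in an alternative that changed background correction (normexp) and normalization (quantile) together, called normexp below. With it the distal differences of Mmp3, Mmp7, Mmp9 and Mmp12 were 0.45, 0.80, 0.90 and 0.95, and the proximal ones of Mmp3, Mmp7 and Mmp13 were 0.95, 0.58 and 0.64, all positive and all under 2-fold. All 6 of 6 skeletal muscle markers were also at least 2-fold higher in each stump (median 1.92 distally and 5.46 proximally), and 6 and 5 of 8 fibroblast markers were lower in the distal and proximal nerve. Of 9 Schwann cell markers 6 were lower distally (median -1.48) and 4 proximally (median -0.94), with 1 higher in each stump. The part of these cell types in the values was not tested.

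**Figure D2:**
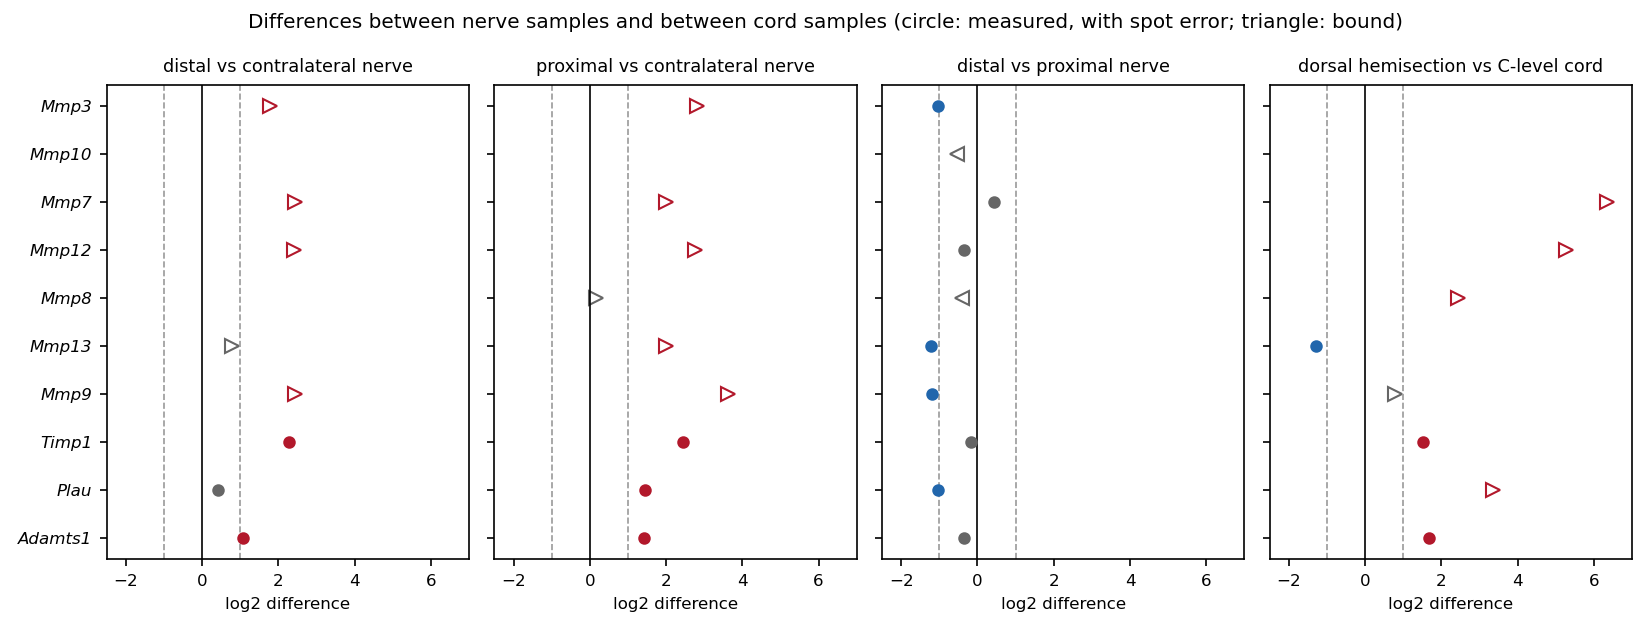
Log2 differences of the 10 genes (horizontal axis) in 4 pairs of samples, with dashed lines at 2-fold. Circles are measured differences with the spot error as bars, triangles are bounds, red is at least 2-fold higher, blue at least 2-fold lower, and genes dim in both samples or without a usable bound have no symbol. Timp1 and Adamts1 lie right of the dashed line against the contralateral nerve in both stumps and in the cord pair.

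The stumps were then set against each other. In the distal nerve 4 of the 10 genes were at least 2-fold lower than in the proximal nerve and 0 were higher, where 1.69% of 12063 genes were lower and 1.09% higher. The median of the members was -0.47, beside 0.02 over all genes. These shares are 131 genes higher and 204 lower, against 80 and 237 with the scans at their 75th percentile and 26 and 89 with normexp. The 4 were Mmp13 (-1.21 ± 0.08), Mmp9 (-1.19 ± 0.04), Plau (-1.04 ± 0.05) and Mmp3 (-1.02 ± 0.09), from the levels given above. Timp1 (-0.17 ± 0.02), Adamts1 (-0.35 ± 0.03) and Mmp12 (-0.35 ± 0.09) were within 2-fold, and Mmp7 was the only member that was higher distally (0.43 ± 0.09). Mmp8 and Mmp10, dim distally, were at most -0.41 and -0.53. All 4 calls lie close to 2-fold: with normexp they were -0.39, -0.73, -0.99 and -0.49 in the same order. Skeletal muscle markers moved with this pair, with a summed log2 level of 12.1 in the distal nerve against 15.4 in the proximal nerve and all 6 of 6 markers at least 2-fold lower distally; their part in the result was not tested.

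In the cord the dorsal hemisection sample was compared with the C-level control. Mmp7 and Mmp12 stood far above their control levels. Among the 8 members measured, 6 stood at least 2-fold above it and 1 below (median 2.06 with 5 bounds, 1.51 over the 3 measured differences), where 9.62% of 12032 genes were higher, 8.97% lower and the median was -0.05. Mmp7 read 10.01 in the dorsal hemisection and a dim 2.99 in the C-level cord, at least 6.35 higher (81.5-fold). Mmp12 read 8.94 in the dorsal hemisection against 1.61 in the C-level cord, at least 5.28 higher (38.8-fold). Both genes had their highest level of the 8 samples in this sample, and so did Mmp8, at 6.11 against a dim 1.76, or at least 2.45 higher.

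The remaining members in the cord were urokinase, Adamts1, Timp1 and 4 metalloproteinases. Plau read 7.02 in the dorsal hemisection against a dim 3.27 in the C-level cord, at least 3.36 higher (10.3-fold). Adamts1 read 11.72 against 10.04, a difference of 1.67 ± 0.03, and Timp1 read 15.79 against 14.28, a difference of 1.51 ± 0.02 (2.85-fold). Mmp9 read 4.45 against a dim 2.20, at least 0.79 higher. Mmp13 ran the other way, at 4.86 in the dorsal hemisection against 6.15 in the C-level cord (-1.29 ± 0.05), the only member that was lower. Mmp3 (3.02 against 1.99) and Mmp10 (2.09 against 1.81) were dim in both cord samples. With normexp Mmp8 was at 0.76 and Mmp13 at -0.47, while Mmp7 and Mmp12 were still at 3.72 and 3.00. The labels give these samples different parts of the cord, so region and treatment cannot be told apart. The summed level of 8 fibroblast markers was 16.9 in the dorsal hemisection against 14.8 in the C-level cord, with 5 of 8 higher, and that of 5 neuron markers was 14.7 against 16.2, with 4 of 5 lower; their part was not tested.

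The Schwann cell cultures given S100A8/A9 were compared with the unstimulated one. At 1 h Adamts1 and Plau stood higher than in the unstimulated culture. At 24 h no member was at least 2-fold apart from it. Of 7 members measured at 1 h, 2 were higher and 0 lower (median 0.83 with 1 bound, 0.78 over the 6 measured differences), where 1.4% of 10690 genes were higher, 1.11% were lower and the median was -0.02. These are 150 genes higher and 119 lower, against 42 and 50 with normexp. At 24 h, 0 of 6 were higher and 0 lower (median 0.32), where 0.289% of 10728 genes were higher and 0.298% lower. Both times were set against the same culture, which was that of 24 h.

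Adamts1 read 11.59 in the unstimulated culture, 13.81 at 1 h and 11.56 at 24 h of S100A8/A9. It was 2.23 ± 0.02 higher at 1 h (4.68-fold) and -0.03 ± 0.03 apart at 24 h, and its level at 1 h was the highest of the 8 samples. Plau read 6.03, 7.21 and 6.39 in the same order, 1.19 ± 0.09 higher at 1 h (2.28-fold) and 0.36 ± 0.11 higher at 24 h, and with normexp its difference at 1 h was 0.72. Mmp10 read 4.83, 5.66 and 5.11, or 0.83 ± 0.17 and 0.27 ± 0.21 higher. Mmp13 read 5.89, 6.62 and 6.39, or 0.73 ± 0.06 and 0.50 ± 0.07 higher. For all 4 genes the culture of 1 h was the highest of the 3. At 1 h 3 of 9 Schwann cell markers were at least 2-fold lower, and at 24 h 0 were; their part was not tested.

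The remaining members were under 2-fold apart in culture or not well above background. Mmp7 read a dim 4.30 unstimulated, 5.20 at 1 h and a dim 4.12 at 24 h, at least 0.90 higher at 1 h. Mmp3 read 5.50, 5.59 and 5.93. Alone among the metalloproteinases of the 10 genes above background in culture, it was highest at 24 h (0.42 ± 0.17 above the unstimulated culture). It was then 0.34 ± 0.17 above the culture of 1 h, which is within 2 spot errors. Timp1 read 15.57, 15.33 and 15.43, or -0.24 ± 0.02 and -0.15 ± 0.02. Mmp8 (1.79 to 1.82), Mmp9 (1.70 to 1.77) and Mmp12 (1.62 in all 3) were not well above background in any culture. Directly between the times, Adamts1 at 24 h was 2.25 ± 0.03 below its value at 1 h (log2 difference -2.25) and the only member at least 2-fold apart, with 0 higher, where 1.68% of 10643 genes were lower at 24 h and 1.51% higher (179 and 161 genes, against 52 and 75 with normexp). Mmp7 was at most -0.79 here.

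**Figure D3:**
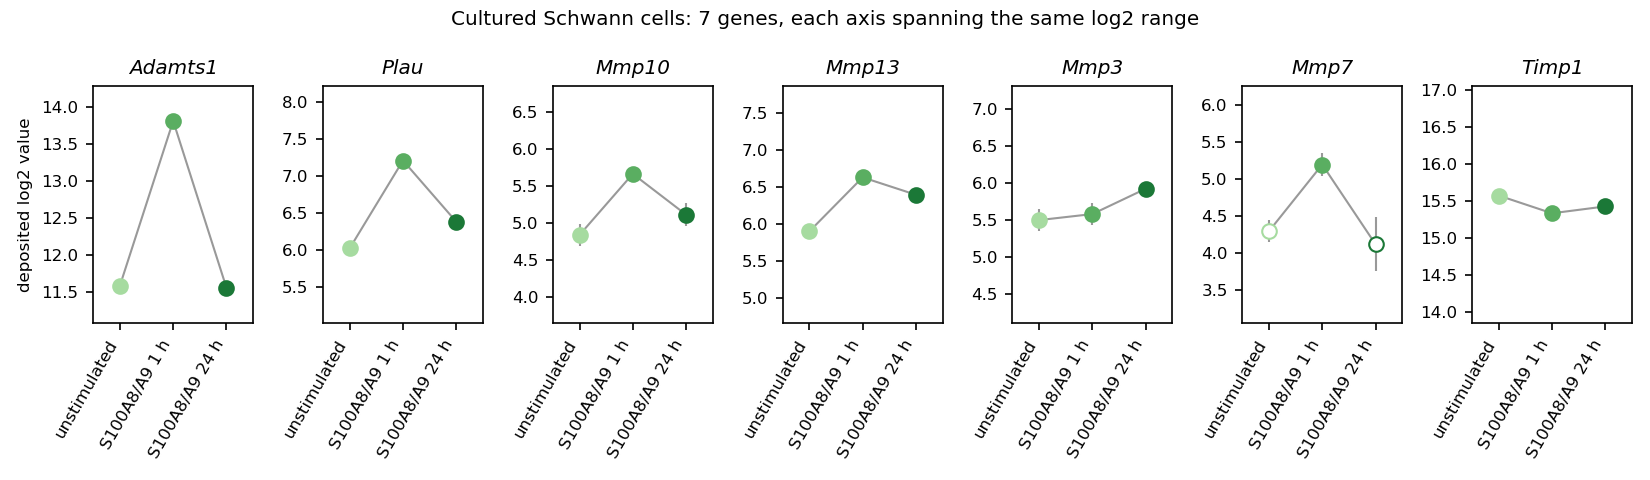
Deposited log2 value (vertical axis) of 7 genes in the unstimulated Schwann cell culture and after 1 h and 24 h of S100A8/A9, with 1 point per culture and the spot error as bars; open points were not well above background. Each axis spans the same log2 range, so the sizes of differences can be compared: Adamts1 stands 2.23 above the unstimulated culture at 1 h and 0.03 below it at 24 h. The joining line is no time course, because the unstimulated culture was the 24 h control.

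The control samples of nerve, cord and culture differed as well. Their labels give nerve and cord different days, and the cultures came from younger rats. Tissue cannot be told apart from these or from the injections and culture agents named above. The contralateral nerve stood above the C-level cord in Plau (9.18 against a dim 3.27, at least 5.52 higher) and Adamts1 (12.11 against 10.04, 2.07 ± 0.03 higher) and below it in Mmp13 (a dim 3.28 against 6.15, at most -2.27), while Timp1 differed by 0.23 ± 0.03. These are 2 members higher and 1 lower of 4 measured, where 19.2% and 17.5% of 12027 genes were. The unstimulated Schwann cells stood above the contralateral nerve in Mmp13 (5.89 against a dim 3.28, at least 2.02), Mmp3 (5.50 against a dim 2.02, at least 1.63) and Timp1 (15.57 against 14.51, 1.07 ± 0.03), and below it in Plau (6.03 against 9.18, -3.16 ± 0.09). Mmp10 was at least 0.96 higher and Adamts1 at -0.53 ± 0.02. Of 6 members measured in this pair 3 were higher and 1 lower, where 20.9% and 19.5% of 11733 genes were and the median of all genes was 0.22.

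Ordered over the 8 samples, Timp1 and Plau were highest in the proximal nerve and lowest in the C-level cord. Mmp3 and Mmp9 were highest in the proximal nerve too, Mmp10 and Mmp13 in the Schwann cells at 1 h. Several neighbours in these orders lay within 2 spot errors of each other, among them Mmp3 in the distal nerve (5.67) and in the Schwann cells at 1 h (5.59), Mmp13 in the unstimulated culture (5.89) and the proximal nerve (5.87), and Adamts1 in the unstimulated culture (11.59) and at 24 h (11.56). For each member well above background on at least 4 arrays, the genes most alike in pattern were sought by Pearson's r over the 8 samples among 11489 genes. They were Hspb9 (0.990) and Zdhhc18 (0.976) for Timp1, Col8a1 (0.983) and Plpp1 (0.977) for Plau, and Rnf217 (0.962) and Ube2j1 (0.929) for Adamts1. For Mmp7 they were Tmem86a (0.969) and Rcan3 (0.941), for Mmp13 Pde4d (0.956) and Pfdn6 (0.949), for Mmp3 Mrpl22 (0.980) and Krtap7-1 (0.976), and for Mmp10 Sardh (0.981) and Or1p1 (0.980). Dim values were included in r: Mmp7 and Mmp10 were well above background on 4 of the 8 arrays and Mmp3 on 5. Pearson's r also takes no account of the size of a difference. Mrpl22 read 12.47 in the proximal nerve and 11.59 in the C-level cord, where Mmp3 read 6.69 and a dim 1.99. The samples fall into 3 tissues, which share much of any such pattern, and the values are a description only.

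Genes of the same pathways outside the 10 did not all run with them. Of all measured genes, 12.7% were higher and 14.1% lower in the distal nerve, and 10.5% and 11.7% in the proximal nerve. In the dorsal hemisection 9.62% were higher and 8.97% lower. In the Schwann cells 1.4% and 1.11% were at 1 h, and 0.289% and 0.298% at 24 h. The lists below are short, and a count near these shares is no result about a list. In the plasminogen system the urokinase receptor Plaur stood higher in both stumps. Plaur read 8.98 and 9.37 in the distal and proximal nerve, against 6.22 in the contralateral nerve (2.75 ± 0.08 and 3.15 ± 0.08). The list had 2 of 9 measured genes higher and 1 lower in the distal nerve and 2 of 8 higher and 0 lower in the proximal nerve (medians 0.35 and 0.13). The lower one was Serpine2, an inhibitor of plasminogen activators and thrombin, at 10.02 in the distal nerve against 11.44 (-1.42 ± 0.05). The tissue plasminogen activator Plat read 13.72 and 13.64 in the stumps, against 13.50. In the dorsal hemisection 2 of 7 measured stood higher and 0 lower, and Plaur read 6.38 against a dim 3.99 in the C-level cord (at least 2.39). In the Schwann cells none of the 7 measured genes of the list was 2-fold apart at either time.

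The other metalloproteinases had 1 gene higher and 3 lower of 11 measured in each stump (medians -0.71 distally and -0.45 proximally). Mmp19 was the higher one, at 1.33 ± 0.09 and 1.13 ± 0.09. The lower ones were Mmp27 (-2.53 ± 0.11 and -2.10 ± 0.11), Mmp11 (-1.75 ± 0.20 and -1.37 ± 0.12) and Mmp23 (-1.63 ± 0.04 and -1.49 ± 0.04). Mmp27 is a neighbour of Mmp8 on chromosome 8 and read 4.47 and 4.89 in the stumps, against 7.00 in the contralateral nerve. Mmp1, also in the row, was well above background in the unstimulated Schwann cells alone (4.87). In the cord 5 of 10 measured were higher and 0 lower in the dorsal hemisection (median 0.75), led by Mmp2, or gelatinase A (12.49 against 9.82, 2.67 ± 0.06), Mmp23 (2.07 ± 0.06) and the membrane-bound Mmp14 (13.37 against 11.43, 1.94 ± 0.03). In the cultures Mmp17 was the only gene of the list 2-fold apart at 1 h of S100A8/A9, at 7.07 against 8.95 unstimulated (-1.88 ± 0.06), and read 8.90 at 24 h.

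Among the other inhibitors, Timp4 was lower in both stumps, at 8.40 and 8.13 in the distal and proximal nerve against 10.13 in the contralateral nerve (-1.73 ± 0.05 and -2.0 ± 0.06), and Timp3 was lower in the proximal nerve (8.23 against 9.68, -1.45 ± 0.05). None of the 4 measured inhibitors was higher in a stump, with medians of -0.87 distally and -1.17 proximally, and 1 was higher in the dorsal hemisection, the broad protease inhibitor A2m (1.42 ± 0.03). Of 6 ADAMTS genes measured, Adamts9 (1.88 ± 0.05 distally and 2.27 ± 0.05 proximally) and Adamts4 (1.21 ± 0.14 and 1.40 ± 0.14) were higher in both stumps and Adamts12 was lower (-1.14 ± 0.12 and -1.45 ± 0.12), with medians of 0.00 and 0.17. In the dorsal hemisection 4 of 6 were higher and 0 lower. In the cultures Adamts15 was lower at 1 h (-1.11 ± 0.02). None of 4 ADAM genes was 2-fold apart in a stump, and Adam19 was higher in the dorsal hemisection (1.07 ± 0.05).

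Markers of leukocytes, which can carry Mmp8, Mmp9 and Mmp12, stood higher in both stumps and in the dorsal hemisection. Of these genes only Mmp12 was at least 2-fold higher in each of these samples. Mmp9 was so in the stumps and not in the cord, and Mmp8 in the dorsal hemisection and in neither stump. The summed log2 level of 11 neutrophil markers was 15.4 in the distal and 15.045 in the proximal nerve, against 11.6 in the contralateral nerve. Of 10 measured, 8 were at least 2-fold higher in each stump, with 1 lower in the distal nerve and 0 in the proximal nerve. The lower one was Elane (at most -2.13 distally), which was also -0.88 ± 0.22 apart proximally. The higher distal sum does not stand for the list. Between the stumps 1 of 10 measured markers was higher distally and 2 were lower, with a median of -0.26. The higher one was Retnlg, at 14.35 distally against 11.74 proximally (2.60 ± 0.04). The summed level of the neutrophil markers was 13.2 in the dorsal hemisection, against 12.2 in the C-level cord, with 7 of 8 higher. The summed level of 10 macrophage markers was 16.7 distally and 16.2 proximally, against 14.5, with 9 and 7 of 10 higher, and 15.5 in the dorsal hemisection, against 13.0, with 9 of 10 higher. In the C-level cord 9 of these 10 were already well above background. The summed level of 4 microglia markers was 15.6 in the dorsal hemisection, against 14.4 in the C-level cord, with 2 of 4 higher and 0 lower. In the stumps S100a8, named here after its values were seen, was 7.33 and 7.89 higher, the largest differences of the neutrophil list. In the dorsal hemisection it was 2.04 higher. In the cultures 8 of 11 neutrophil markers were not well above background, S100a8 and S100a9 among them, as were 6 or 7 of 10 macrophage markers. The part of leukocyte or microglia numbers in the nerve and cord values was not tested.

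**Figure D4:**
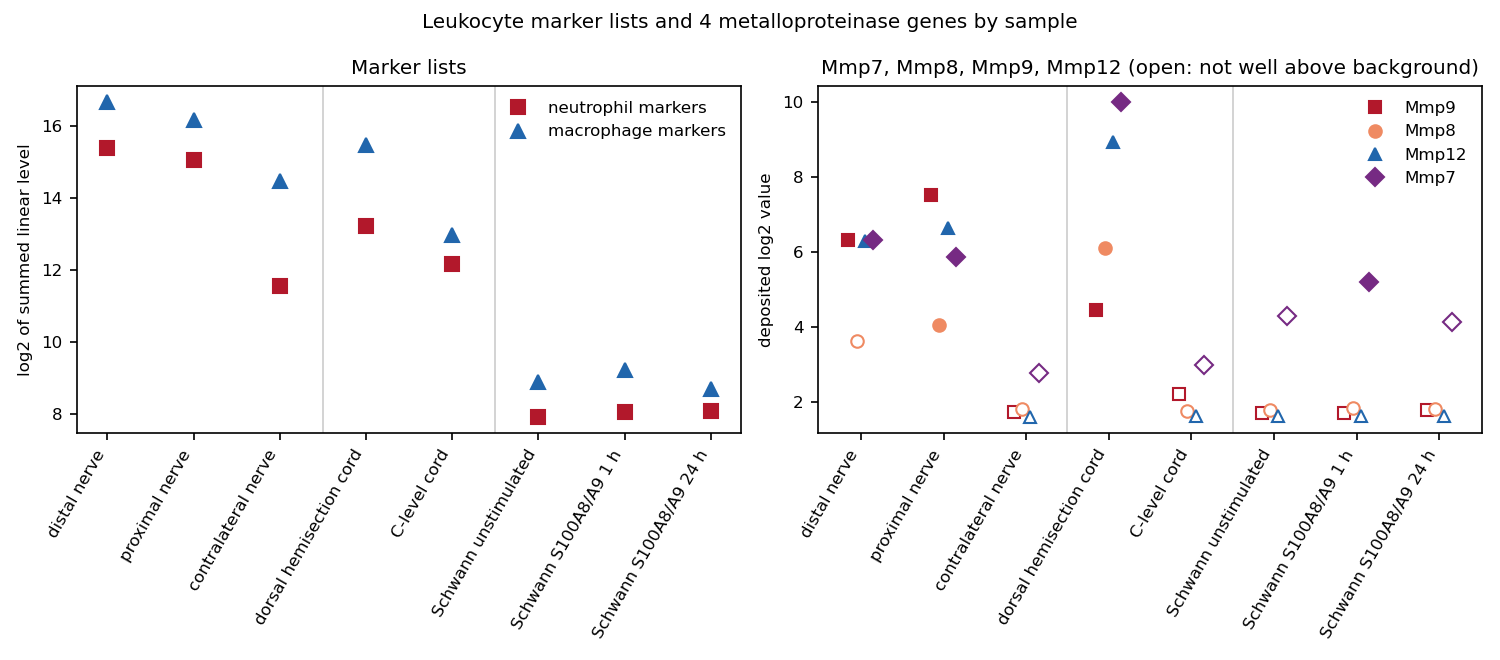
Left, log2 of the summed linear level of 11 neutrophil and 10 macrophage markers in the 8 samples. Right, deposited log2 values of Mmp7, Mmp8, Mmp9 and Mmp12, open where not well above background: Mmp9 is highest in the proximal nerve (7.51), and Mmp7, Mmp8 and Mmp12 in the dorsal hemisection (10.01, 6.11 and 8.94).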

How the data were processed

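The scanner files hold spot intensity, background-subtracted by Feature Extraction 10.7.3.1 and designed on build rn4, per the file headers; the submitters' processing notes name version 10.5. Expression in the value table is the authors' deposited log2 value, normalized between arrays by a method that no label or header records, so the offset of its scale is unknown. All columns have a median of 8.03 and follow the signal of a scan with slopes of 0.94 to 1.09. All 8 arrays lay on 1 slide, scanned on 1 date. Flags from the scanner software, per the file headers, came from the scan that ranks as the column does (Spearman rho across probes 1.00000, next best at most 0.993); a probe was well above background if the majority of its spots were. Probes were named through RefSeq accessions (GRCr8): 18006 of 30367 matched. Each member had 1 probe, with 2 spots (6 genes) or 10 spots. The spot error is the SD of log2 signal over repeated spots divided by the square root of their number; for probes with fewer than 3 spots the SD was the median of probes of similar signal. A gene was measured in a pair if well above background in at least 1 of the 2 samples, and called at 2-fold. Alternatives were the matched scans scaled to the 75th percentile, the scans as recorded, normexp (offset 50, limma 3.58.1, R 4.3.3, on the median spot and background signals) with quantile normalization, the mean of probes, other filters and a 3-fold threshold. Other computing used Python 3.11.15. The calling step was tested on simulated data with changes larger than the 2-fold call. That checks the computing, and not the accuracy of dim values or of calls near 2-fold. The members and lists were chosen with earlier results of these data known, and the choice of the headings over the record was too, so the counts are no independent support. Named outside the members are listed genes called in a pair, at most 3 each way by size, and the 2 genes most alike in pattern; levels of Plat and Mmp1 were added after their values were seen. Results of 1 listed gene are not reported here. Arrays give no read depth, and 1 array a group limits the precision.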

Additional observations from a re-analysis of the deposited data

How the results depend on the processing

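Of 35 member differences of at least 2-fold, scaling the matched scans to their 75th percentile kept the sign of 35 and left 34 at 2-fold, and normexp with quantile normalization kept the sign of 35 and left 18 at 2-fold. No filter or floor, and any spot well above background (an alternative chosen after seeing the data) kept all 35. Both settings can only keep or enlarge a difference called here, so this outcome was fixed in advance and tests nothing. Of the 35, 18 had both samples well above background. With the scans as recorded, 18 of 32 kept their sign, 10 of them at 2-fold, and 14 turned it. The mean of probes tests nothing for the members, which have 1 probe each. With the scans as recorded, the sample names no longer stand for the tissues of the headings. The recorded contralateral nerve is the scan of the dorsal hemisection column, and the recorded proximal nerve that of the Schwann cells at 1 h. The values of that setting, which follow, thus compare other tissues and do not check the processing. In distal against contralateral nerve Mmp7 was -3.69 and Mmp12 -2.74. In proximal against contralateral nerve Mmp7 was -5.46, Mmp9 -1.21, Mmp12 -5.10, Timp1 -0.13 and Plau -0.55. In distal against proximal nerve Mmp3 was 0.72, Mmp9 2.39 and Plau 2.72, and Plau was -0.38 in the cord pair. In the Schwann cells at 1 h Plau was -1.39 and Adamts1 -1.53, and Plau was 3.19 in unstimulated Schwann cells against contralateral nerve.

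Counts that moved by over 1.5 times with the scans as recorded were 3 lower in the distal nerve, 2 higher and 4 lower in the proximal nerve, 5 higher and 2 lower in distal against proximal, and 0 higher and 0 lower in the cord. In the Schwann cells they were 0 higher and 8 lower at 1 h, 7 lower at 24 h, and 1 higher and 2 lower at 24 h against 1 h. The share of all genes moved too: with these scans 10.2% were lower at 1 h (1.11% by the headings), 19.7% at 24 h (0.298%) and 0.41% higher in the cord (9.62%). The members' counts were 5 higher in contralateral nerve against C-level cord and 5 higher and 3 lower in Schwann cells against contralateral nerve. With normexp they were 2 higher in the distal and 5 higher in the proximal nerve, 0 lower in distal against proximal and in the cord, 1 higher at 1 h, 0 lower in contralateral nerve against cord and 1 higher in Schwann cells against nerve. The share of all genes fell too, to 8.46% higher in the distal nerve (12.7% before) and 6.83% in the proximal nerve (10.5%). In distal against proximal 0.738% were lower (1.69%), in the cord 4.5% (8.97%) and in contralateral nerve against cord 13.2% (17.5%). At 1 h 0.393% were higher (1.4%), and in Schwann cells against nerve 14.4% (20.9%). Requiring both samples above background, which leaves fewer genes by construction, gave 2, 3 and 2 members higher in the distal nerve, proximal nerve and cord, 1 higher and 0 lower in contralateral nerve against cord, and 1 higher in Schwann cells against nerve. Of all genes, 11.7%, 9.33% and 8.94% were then higher in the distal nerve, proximal nerve and cord. In contralateral nerve against cord 18% were higher and 14.6% lower, and in Schwann cells against nerve 20.3% were higher. At 3-fold, 0 members were lower in distal against proximal and in the cord, and 1 was higher at 1 h. Of all genes 0.796% and 2.7% were then lower, and 0.281% were higher at 1 h. Without filter or floor 2 members were lower at 24 h against 1 h and 5 higher in Schwann cells against nerve, beside 3.22% and 21.4% of all genes. Any spot above background also gave 2 members lower at 24 h against 1 h, beside 2.16% of all genes. Apart from the filters and thresholds, the cause was not tested. No paired analysis was possible because each group has 1 sample and the result comes from no test. Signal near background limits the differences given as bounds.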
